A study of Triticum aestivum with 4 samples.

Results

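This report describes 45 known miRNAs of winter wheat leaves that were listed above 0 at an earlier growth stage and at 0 at the jointing stage. They were chosen from the 371 distinct names in the table of known miRNAs. The names considered had a miR number above 900 and lay outside the series miR1117 to miR1139, miR5048 to miR5086, miR5163 to miR5203, miR9652 to miR9680 and miR9772 to miR9783 and outside miR2111, miR2118, miR2275 and miR6118. This left 180 like-named miRNAs, and the 45 are 25% of them. The deposited values themselves chose the 45, through a jointing value of 0 and at least 1 earlier value above 0, so their levels are given as a description with no test. Among all entries, 77 of 371 known miRNAs, or 20.8%, were listed at 0 at jointing and above 0 earlier.

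Leaves came from plants of Shimai 22, a semi-winter cultivar of bread wheat (Triticum aestivum), grown in the field under natural weather. The study describes no mutation and no treatment of these plants. Leaf_1 was taken at the three-leaf stage before winter, Leaf_2 during winter dormancy, Leaf_3 at spring green-up and Leaf_4 at jointing, when the stem elongates. At each stage the RNA of 3 biological replicates was mixed into 1 small RNA library, so no spread between plants could be measured and every difference is one between 2 libraries. Values are in TPM, the reads of a miRNA per 1000000 mapped reads of its library, and 95% intervals are exact Poisson intervals on reads estimated from these values, which cover counting error only.

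Plant miRNAs are cut from hairpin precursors, mostly by the nuclease DCL1, and guide ARGONAUTE proteins to mRNAs with a matching site. Most are 21 or 22 nt long and many begin with uridine, the first base that AGO1 prefers. Small RNAs of 24 nt are usually made by DCL3 from transposons and other repeats, and they guide DNA methylation. A name in this table says only that a wheat read resembled a miRNA registered from any plant, and many of the names considered here were registered from single lineages. In rice, miR1863 belongs to a class of long miRNAs of 24 nt, and no role is given here for the other names.

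The sequences of the 6 members above 100 TPM are shown first because they carry most of the reads of the group. Capitals mark the seed, bases 2 to 8 from the 5′ end.
miR1509b: aAUCAAGGaaauugcaagggu
miR8742a: cAUAUUAUucacuuggaccua
miR4410: uCAUUUUGcuccguauguagucac
miR9493: aGUAAUUUggaacggagggag
miR5809: cUUCGUGCcggcgacgcauca
miR5205b: uUAUAUUAugggacggaggga
Except for miR4410, with 24 nt, these sequences have 21 nt, and none begins with G. The other members listed at all 3 earlier stages are shown for comparison.
miR5387b: gUGGCACGaaccgguacuaaaggu
miR8645: aCCUUGGUaccuguaauuugaguu
miR5281b: uCUUACAAaagugaacggagg
miR6026-3p: gAUUGGCUaugaguuguuuugcuu
The 45 members had 45 different seeds, so no group of members shared one. Of the members, 3 shared a seed with another known miRNA (6.67%), against 42 of the 371 known miRNAs (11.3%).

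Most members were listed at 1 stage only. There were 31 of these, or 68.9% of the 45, close to the 66.2% (51 of 77) among all known miRNAs at 0 at jointing. Of the members, 9 were listed at 2 earlier stages and 5 at all 3. The highest value of a member ranged from 0.8 to 400.3 TPM with a median of 10.6 TPM. Of the 45, 14 exceeded 50 TPM at some stage, 15 had a highest value above 5 and up to 50 TPM, and 16 stayed at or below 5 TPM. The median highest value of the 135 like-named miRNAs that were listed at jointing was 17.5 TPM. That value was taken over all 4 stages and includes 40 names listed at jointing alone. For like-named miRNAs listed at all 4 stages, the median highest value over the 3 earlier stages was 41.6 TPM.

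**Figure D1:**
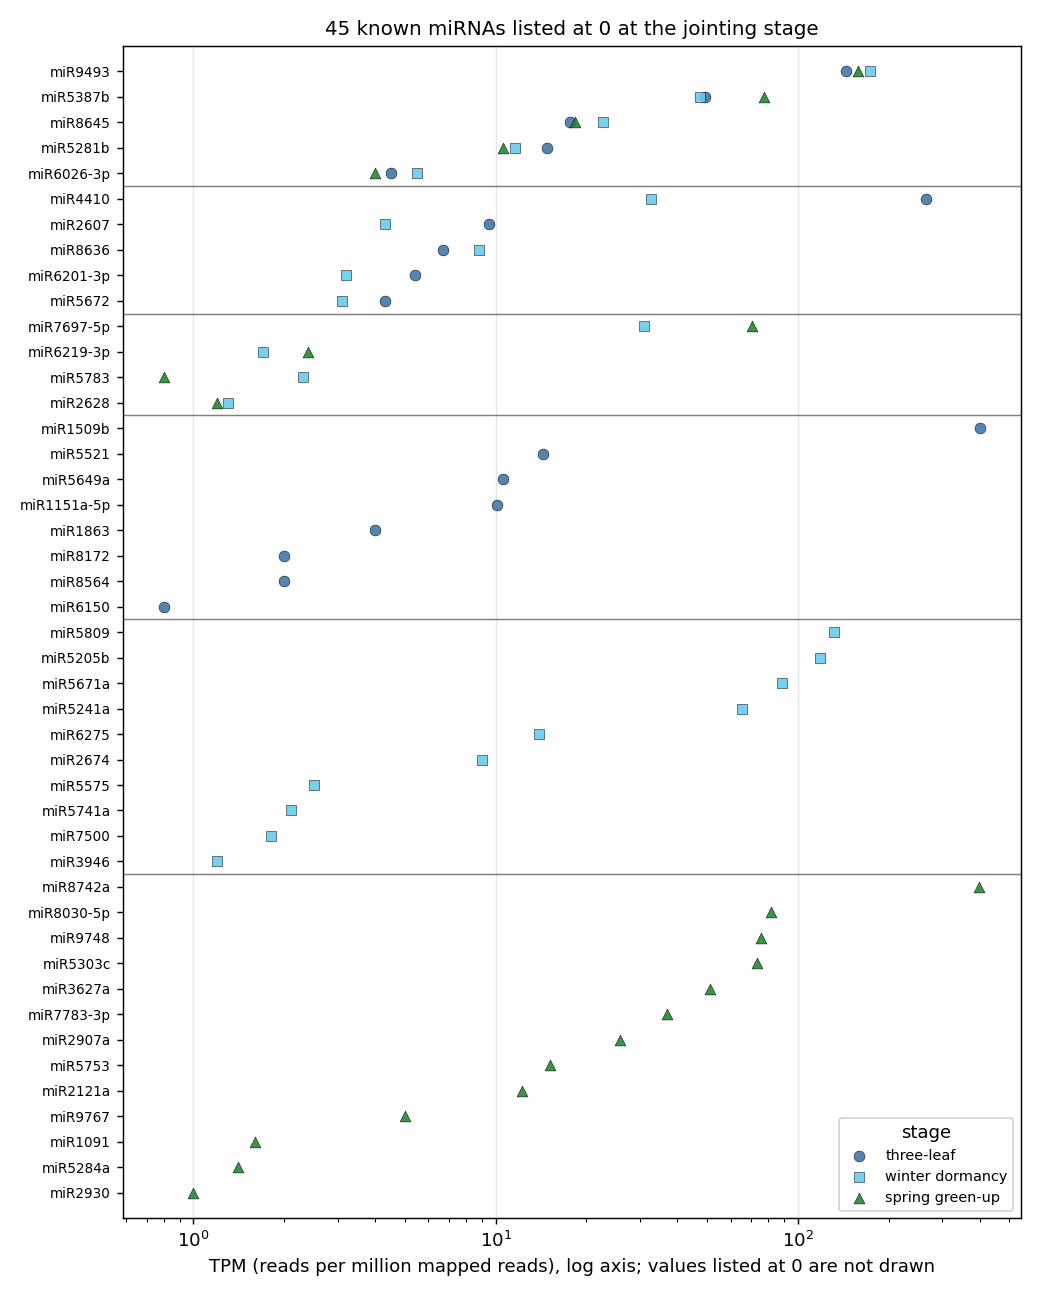
TPM of each of the 45 members (log axis), 1 row a miRNA, with a circle for the three-leaf, a square for the winter dormancy and a triangle for the spring green-up library. Horizontal lines separate members by the stages at which they were listed, and 31 rows hold a single point.

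The 5 members listed at all 3 earlier stages had similar values there before the listed 0. For miR9493 the three-leaf value was 144.8 TPM, the winter value 172.9 TPM, the spring value 158.0 TPM and the jointing value 0. Its highest early value was 1.19-fold its lowest, the narrowest range of the 5. The values of miR5387b were 49.2, 47.5 and 77.2 TPM before the 0 at jointing. It was the only one of the 5 that varied by more than 1.5-fold before jointing, with a spring value 1.63-fold that of winter (95% interval 1.50 to 1.76). For miR8645 the values were 17.7, 22.6 and 18.3 TPM, and for miR5281b they were 14.8, 11.6 and 10.6 TPM. The lowest of the 5 was miR6026-3p, with 4.5, 5.5 and 4.0 TPM. These rest on 73 to 113 estimated reads a library. The ratio of its spring to its winter value was 0.727 (95% interval 0.538 to 0.992), and that of its winter to its three-leaf value was 1.22, with an interval that included 1 (0.923 to 1.64).

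Another 5 members were listed in the first 2 libraries, three-leaf and winter, and at 0 afterwards. The steepest was miR4410, with 265.3 TPM in the three-leaf library, 32.7 TPM in winter and 0 at both later stages. Its winter value was 8.11-fold lower than the three-leaf value (95% interval 7.49 to 8.80). For miR2607 the values were 9.5 and 4.3 TPM, 2.21-fold lower in winter, with an interval on both sides of 2-fold (1.72 to 2.89). The values of miR6201-3p were 5.4 and 3.2 TPM, and those of miR5672 were 4.3 and 3.1 TPM. The interval of the ratio of winter to three-leaf values included 1 for miR5672 (0.518 to 1.02). In the other direction miR8636 went from 6.7 to 8.8 TPM, a ratio of 1.31 (1.05 to 1.65). From the three-leaf to the winter library, then, 4 of the 5 had the lower value in winter, miR5672 within counting error. This count was not made over all known miRNAs.

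A further 4 members were listed only in the winter and the spring library. Of these, miR7697-5p was the most abundant, with 31 TPM in winter and 70.8 TPM in spring, a 2.28-fold difference (95% interval 2.07 to 2.51). The other 3 were low. For miR6219-3p the values were 1.7 and 2.4 TPM, for miR5783 they were 2.3 and 0.8 TPM, and for miR2628 they were 1.3 and 1.2 TPM. The ratio of spring to winter was below 1 beyond counting error for miR5783 (0.348, 95% interval 0.188 to 0.658), while its interval included 1 for miR6219-3p and miR2628. No member was listed at the three-leaf and spring green-up stages alone.

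At the three-leaf stage alone 8 members were listed, and 1 of them dominated. The value of miR1509b was 400.3 TPM (95% interval 391.6 to 409.1, 8126 estimated reads), the highest of all 45, and it was listed at 0 in the 3 later libraries. The next highest were miR5521 with 14.4 TPM, miR5649a with 10.6 TPM and miR1151a-5p with 10.1 TPM. The long miRNA miR1863 had 4.0 TPM, miR8172 and miR8564 had 2.0 TPM each, and miR6150 had 0.8 TPM from 16 estimated reads.

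Only in winter 10 members were listed, and 4 of these exceeded 50 TPM. The values were 132.2 TPM for miR5809 (95% interval 127.3 to 137.2), 118.3 TPM for miR5205b (113.7 to 123.1), 88.6 TPM for miR5671a (84.6 to 92.8) and 65.6 TPM for miR5241a (62.1 to 69.2). These 4 have 21 or 22 nt. Whether these 4 match wheat rRNA, plastid or nuclear sequence was not tested. Below them were miR6275 with 13.9 TPM and miR2674 with 9.0 TPM. The remaining 4, miR5575, miR5741a, miR7500 and miR3946, had 2.5, 2.1, 1.8 and 1.2 TPM.

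The spring green-up stage held the largest such group, with 13 members listed there alone and 5 of them above 50 TPM. The value of miR8742a was 397.5 TPM (95% interval 388.4 to 406.8), close to that of miR1509b at the three-leaf stage, and the intervals of the 2 overlap. It was followed by miR8030-5p with 81.9 TPM, miR9748 with 75.4 TPM, miR5303c with 73.5 TPM and miR3627a with 51.2 TPM. No wheat rRNA, plastid or nuclear sequence was used here, so whether miR9748, miR5303c or other members match such sequence was not tested. Unlike the winter group, 3 of these 5 have 24 nt, and miR9748 has 23 nt. Intermediate values were listed for miR7783-3p (36.9 TPM), miR2907a (25.8 TPM), miR5753 (15.1 TPM), miR2121a (12.2 TPM) and miR9767 (5.0 TPM). At the low end, miR1091, miR5284a and miR2930 had 1.6, 1.4 and 1.0 TPM.

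A listed 0 was common in this table at every stage, and least so at jointing. Of the 180 like-named miRNAs, 48.3% were listed at 0 at the three-leaf stage, 39.4% in winter, 45.0% at spring green-up and 25% at jointing. Of all 371 known miRNAs the shares were 35.3%, 31%, 35.0% and 20.8%. The jointing library was also the deepest, with 1 read worth 0.0458 TPM against 0.0552 TPM in the spring green-up library, the shallowest. The part of depth in these shares was not tested. Listing at jointing alone was found for 40 like-named miRNAs, against 8, 10 and 13 for the 3 earlier stages. Those 40 were mostly low, with a median of 3.9 TPM and 3 above 50 TPM, while the 31 members listed once had a median of 12.2 TPM and 10 above 50 TPM.

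**Figure D2:**
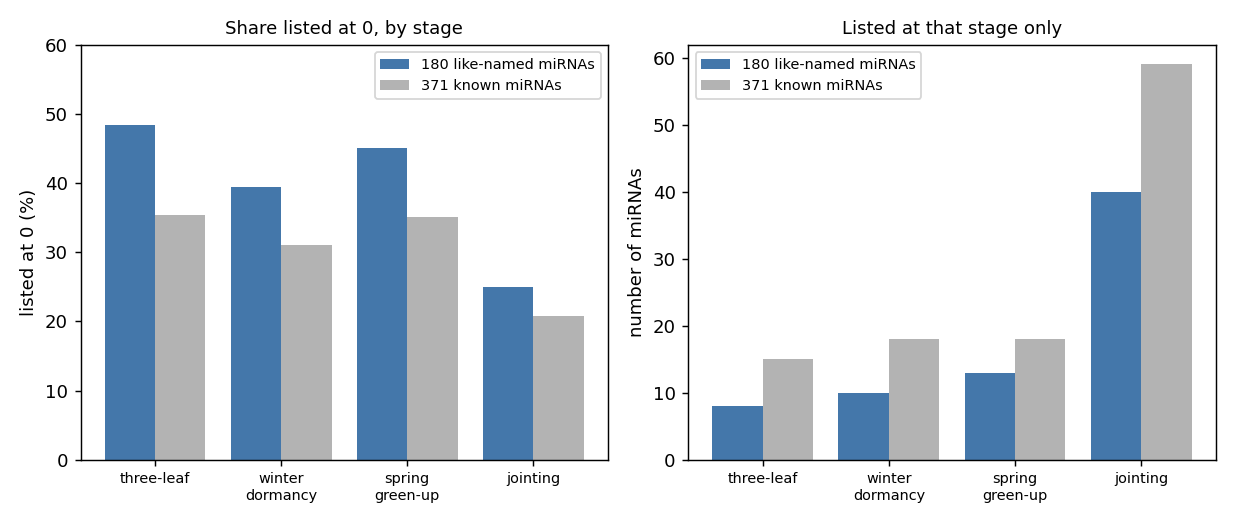
Left, share of miRNAs listed at 0 (%) in each library, and right, number of miRNAs listed at that stage only, for the 180 like-named (blue) and all 371 known miRNAs (grey). The jointing library has the lowest share at 0, 25% of the like-named, and the highest number listed nowhere else, 40.

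Close to the limits of the rule the values were small. The members with the lowest highest value were miR6150 with 0.8 TPM, miR2930 with 1.0 TPM and miR3946 with 1.2 TPM. Just outside, the like-named miRNAs that were listed earlier and had the lowest jointing value above 0 were miR1886h with 1.1 TPM, miR8128-5p with 1.4 TPM and miR3630-3p with 1.6 TPM. In the known table the smallest value above 0 was 0.3 TPM, and no listed value rested on fewer than 6 estimated reads. A listed 0 may therefore stand for a few reads, and no fold is given against it. Among known miRNAs above 50 TPM earlier and above 0 at jointing, the largest ratio of the highest early value to the jointing value was that of miR9778, with 753.1 TPM in winter and 13.9 TPM at jointing.

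Summed over the 45 members, the values were 966.4 TPM at the three-leaf stage (95% interval 952.9 to 980.0), 783.7 TPM in winter (771.7 to 795.9) and 1121.8 TPM at spring green-up (1106.4 to 1137.3). These sums are 0.506%, 0.346% and 0.579% of the TPM of all known miRNAs in the same libraries. A few members made up most of each sum. At the three-leaf stage miR1509b held 41.4% of it, and the 3 most abundant members held 83.9%. In winter miR9493 led with 22.1%, and at spring green-up miR8742a led with 35.4%.

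Between consecutive earlier stages the members differed mostly by being listed or not. A difference was counted above 2-fold if the higher of the values exceeded 5 TPM, values under 3 reads being raised to 3 reads. All known miRNAs include 59 listed at jointing alone, which cannot be counted between earlier stages. The rule keeps such names out of the members, so it lowers the shares of all known miRNAs relative to those of the members. In winter compared with the three-leaf stage, 7 of 45 members were higher (15.6%), against 8.63% of all known miRNAs, and 6 were lower (13.3%), against 7.82%. All 7 were at 0 at the three-leaf stage, and of the 6 only miR4410 and miR2607 were above 0 at both. At spring green-up compared with winter, 10 members were higher (22.2%) against 12.1% of all known miRNAs, and 8 were lower (17.8%) against 18.1%. Among these, only miR7697-5p was above 0 in both libraries. Between the three-leaf and the spring library, 10 members were higher in spring (22.2%), against 11.9% of all known miRNAs, and 8 were lower (17.8%), against 16.2%. All of these members were at 0 in the library with the lower value. From spring green-up to jointing 14 members were lower and 0 higher, which the rule fixes. In that comparison 9.43% of all known miRNAs were lower and 26.1% higher.

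Near-identical names in the same tables could bear on the listed zeros of some members. Overlaps of at least 18 nt with at most 2 mismatches on the same strand were sought among the known and the predicted miRNAs. Of the 45 members, 7 had such a partner, and for 6 of these a partner was listed above 0 at jointing. Reads of one name could then be listed under the other, which was not tested. The other 38 members had no partner under this limit. Partners were not counted over all known miRNAs, of which only 20.8% were listed at 0 at jointing.

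The clearest pair was miR5387b and miR5387a, of 24 nt each, shown here with the bases they share before their single difference in capitals.
miR5387b: GUGGCACGAACCGGUacuaaaggu
miR5387a: GUGGCACGAACCGGUgcuaaaggu
They differ by A16G, counted from the 5′ end with the base of miR5387b first. At jointing miR5387a was listed at 43.7 TPM, and at the 3 earlier stages it was listed at 0, where miR5387b was listed. The 2 names were thus never listed in the same library. Their sums were 49.2, 47.5, 77.2 and 43.7 TPM over the 4 stages, so with both names added no stage was at 0.

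A similar alternation was found within the miR5205 family, although these sequences differ more, with 5 mismatches in 20 nt. The value of miR5205b was 118.3 TPM in winter and 0 otherwise. In contrast, miR5205a had 103.0 TPM in the three-leaf library, 0 in winter, 120.7 TPM at spring green-up and 108.8 TPM at jointing. Summed, the 2 names ranged from 103.0 to 120.7 TPM, a 1.17-fold range. The longer-listed relatives of miR5205b were miR1130b-3p, which overlaps it over 19 nt with 1 mismatch and had 94.4, 194.3, 86.3 and 78.4 TPM, miR1120 and miR1120b-3p. Capitals mark the longest run that miR5205b shares with miR1130b-3p.
miR5205b: uuauAUUAUGGGACGGAGGga
miR1130b-3p: ucuuacAUUAUGGGACGGAGG
The value of miR1130b-3p was highest in winter, when miR5205b was listed. The other relatives were lowest in winter, miR1120 with 21, 13.1, 21.2 and 18.1 TPM and miR1120b-3p with 37.3, 18.8, 33.2 and 29.6 TPM in stage order. On the opposite strand, the predicted novel_miR1401 is complementary to 20 of the 21 bases of miR5205b without a mismatch, and it was listed at 4.1 TPM or less at every stage. More abundant opposite-strand matches were found for other members. They were miR1117 for miR5387b (19 nt, 1 mismatch) and miR1127b-3p for miR7697-5p (18 nt, 1 mismatch). At jointing miR1117 had 216.3 TPM and miR1127b-3p had 402.9 TPM.

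The most abundant of the 5 members listed at all 3 earlier stages, miR9493, belongs to the same group of sequences. Its last bases recur in miR1135, with which it overlaps over 21 nt with 2 mismatches, and, outside the limit, in miR5205a.
miR9493: aguaauuugGAACGGAGGGAG
miR1135: caaguaauuccGAACGGAGGGAGu
Values of miR1135 were 100.3 TPM in the three-leaf library, 39.5 TPM in winter, 100.5 TPM at spring green-up and 146.7 TPM at jointing. It was therefore highest where miR9493 was at 0 and lowest where miR9493 was highest. The second partner within the limit, miR1436 (18 nt, 2 mismatches), did not alternate in this way, with 275.1, 276, 264.2 and 251 TPM in stage order, lowest at jointing. The sum of miR9493 and miR1135 was 245.1, 212.4, 258.5 and 146.7 TPM, so the jointing sum remained the lowest. The word ACGGAGGG was held by miR5205b and miR9493 and by 9 of the 371 known miRNAs in all (4.44% of members and 2.43% of known miRNAs, same strand only). As background, runs of this kind lie at the ends of Stowaway elements, short transposons with inverted repeats that are common in grass genomes. Repeat annotations were not analysed here.

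Other partners were listed more widely than the member. The sequence of miR5241a, listed in winter at 65.6 TPM, shares 19 nt without a mismatch with miR1023a-3p, which begins 3 bases earlier.
miR5241a: UAUGAAUGGAGAGAGCGCUgua
miR1023a-3p: ggaUAUGAAUGGAGAGAGCGCU
The values of miR1023a-3p were 509.7, 662.9, 356.1 and 179.2 TPM, highest in the winter library that held miR5241a and lowest at jointing. For miR7697-5p the partner was miR1127a, which overlaps it over 20 nt with 1 mismatch and had 330.0, 460.2, 512.6 and 402.3 TPM. Both were highest at spring green-up. The low-level miR9767, with 5.0 TPM at spring green-up, differs from miR7484m by A17G and A20G, and miR7484m was listed at 45.7 TPM in winter and 41.9 TPM at jointing only. These 2 names were never listed in the same library either.

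A single member had a partner that was also absent at jointing. This was miR9748, which shares 18 nt without a mismatch with miR394b-3p.
miR9748: gaggaAGGUGGGGAUGACGUCAA
miR394b-3p: AGGUGGGGAUGACGUCAAgu
Both were listed at spring green-up alone, miR9748 at 75.4 TPM and miR394b-3p at 29.5 TPM. In this pair the partner therefore followed the same pattern over the 4 libraries as the member.

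**Figure D3:**
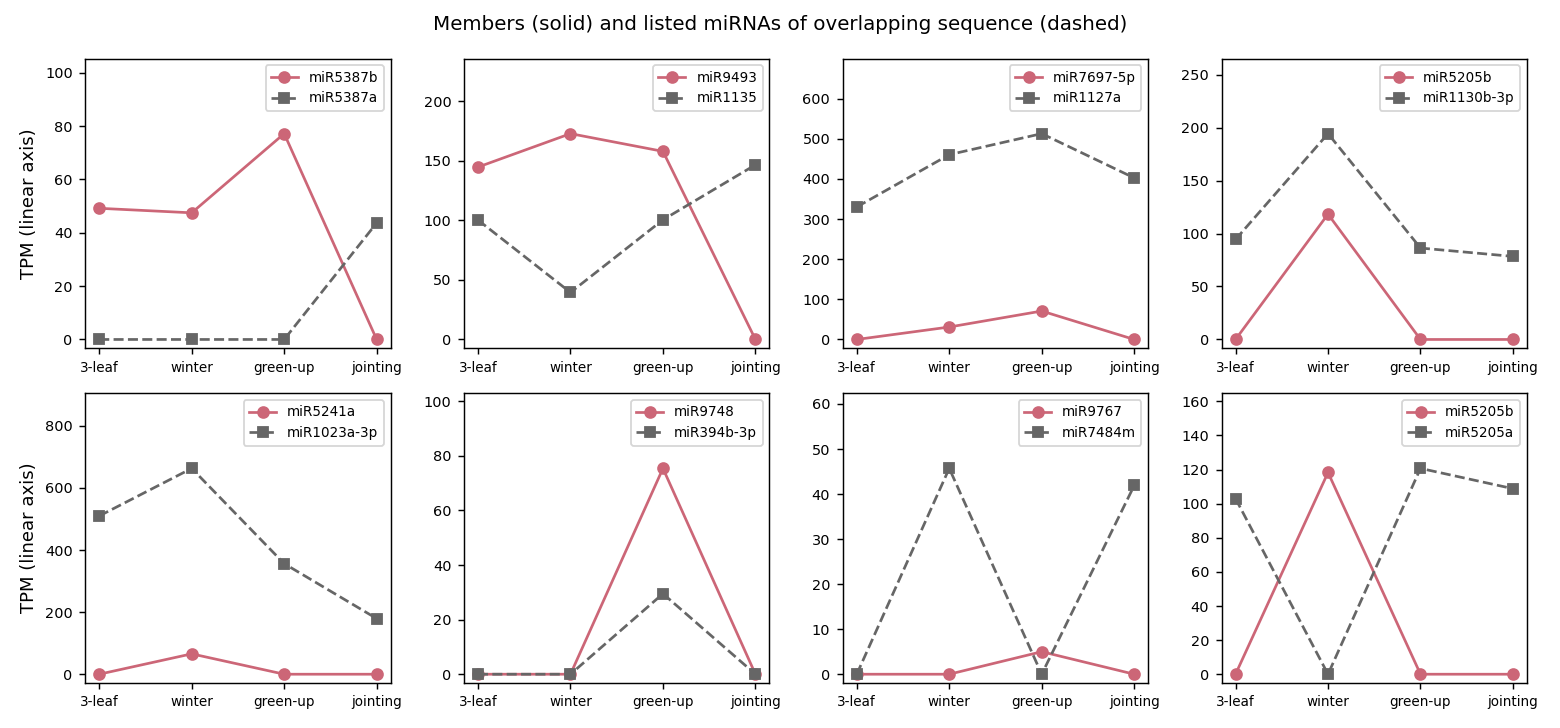
TPM (linear axis, scaled separately in each panel) at the 4 stages for members (red, solid) and a listed miRNA of overlapping sequence or the same family (grey, dashed). miR5387b and miR5387a, miR5205b and miR5205a, and miR9767 and miR7484m are never above 0 in the same library, while miR9748 and miR394b-3p are both listed at spring green-up alone.

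Of the 45 members, 6 belong to a family with another entry in the table, a count not made over all known miRNAs. Besides miR5387b and miR5205b these were miR6201-3p, miR6219-3p, miR1863 and miR3627a. The sequence of miR6201-3p is complementary to that of miR6201 over 20 nt with 2 mismatches, as the 2 arms of a hairpin are. The values of miR6201 were 9.2, 4.2, 3.4 and 1.7 TPM in stage order, and miR6201-3p, at 5.4 and 3.2 TPM in the first 2 libraries, was listed at 0 where miR6201 was at 3.4 TPM. For miR6219-3p the other arm, miR6219-5p, was higher at every stage, with 40.5, 37.9, 37.2 and 65 TPM. The entries miR1863b.2 and miR3627-5p were at most 2.5 TPM, and miR1863b.2 was at 0 at the three-leaf stage, the only one that held miR1863.

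Length and first base were not used to choose the members. Of the 45, 25 had 24 nt (55.6%), against 28.9% of the 135 like-named miRNAs listed at jointing and 25.3% of all known miRNAs. Sequences of 21 nt made up 24.4% of the members, 45.2% of the like-named and 49.6% of all known miRNAs. Uridine was the first base in 22.2% of the members, 44.4% of the like-named and 42.6% of all known miRNAs. Guanine was first in 31.1%, 13.3% and 15.4%. These shares are counts of names and were not tested.

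Among the members the 2 main lengths also differed in level. Levels by length were not computed for all known miRNAs, so this may not be particular to the members. The 11 members of 21 nt had a median highest value of 88.6 TPM and 7 of them exceeded 50 TPM. The 25 of 24 nt had a median of 5.5 TPM and 5 exceeded 50 TPM, namely miR4410, miR5387b, miR5303c, miR8030-5p and miR3627a. The 7 members of 22 nt had a median of 10.1 TPM and the 2 of 23 nt, miR8636 and miR9748, had 8.8 and 75.4 TPM. Within 24 nt, 11 of 25 members began with G (44.0%), against 29.8% of all known miRNAs of that length. Within 21 and 22 nt, 5 of 18 began with U (27.8%), against 52.5%.

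**Figure D4:**
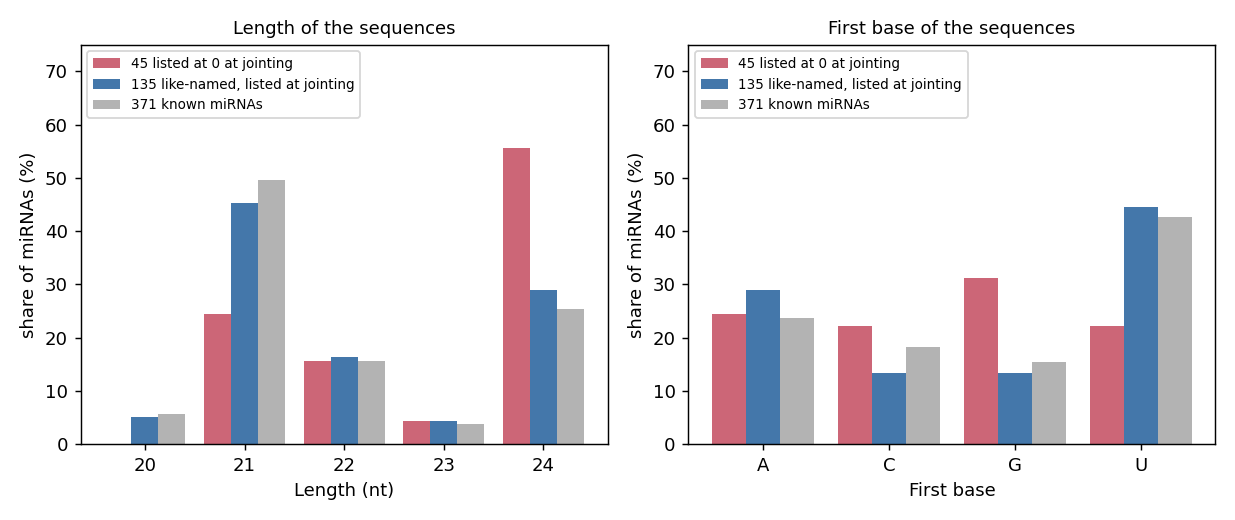
Share of miRNAs (%) by length (left) and first base (right) for the 45 members (red), the 135 like-named miRNAs listed at jointing (blue) and all 371 known miRNAs (grey). Of the members 55.6% have 24 nt and 22.2% begin with U.

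The base composition of the members covered a wide range. Their median GC content was 47.6%, the same as that of all known miRNAs, with 31.8% for miR5521 and 85.7% for miR2907a at the ends. Of the sequences given here with the seed in capitals, miR2907a has the highest GC content, and the others plainly repeat short words.
miR2907a: cGGAGACGccggcgggggccu
miR5783: gACGGACGacgggcgacgggcggc
miR3946: uUGUAAGAagagagagagagagga
miR7500: cGAGCUAUcgagcuaaaaucgagc
These 4 were chosen after their sequences were seen. Except for miR2907a, with 25.8 TPM at spring green-up, none of them exceeded 2.3 TPM.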

How the data were processed

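The authors prepared 1 small RNA library per stage from pooled RNA, sequenced it on a BGISEQ platform, removed low-quality, rRNA, tRNA and repeat reads, and named reads that matched plant miRNAs of miRBase release 21.0, allowing few mismatches, as known miRNAs. The deposited values are RPM rounded to 1 decimal, called TPM here, and 1 rounding step is about 2 reads. The 2 repeated names were counted once. Reads were estimated as RPM times the mapped reads of each library, 18 to 22 times 1000000, the denominator with which the unrounded supplementary values gave whole reads, so that 1 read is worth 0.0458 to 0.0552 TPM. Sequences were taken from the supplementary table of known miRNAs, and all 45 members had one. Predicted miRNAs (82) came from the second deposited table. Intervals take reads as independent, which PCR copies are not, and are exact Poisson or, for ratios, conditional Clopper-Pearson intervals at 95%.

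With 1 library per stage there were no replicates, no tests and no p-values. Members, lists and limits were chosen with earlier results of these data known. Values are given for members listed at 2 or 3 earlier stages, above 50 TPM or with an overlapping sequence, for the 3 members of lowest highest value and the 3 miRNAs nearest outside the rule, and the rest are given by their highest value. The opposite strand was searched after the data were seen. The fold and level rule was tested on simulated data. Alternatives covered level, fold, pseudocount, scaling, listed zeros, length and sums over related names. Python 3.11.15, numpy 2.4.6, pandas 2.3.3, scipy 1.17.1 and matplotlib 3.10.9 were used.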

Additional observations from a re-analysis of the deposited data

How the results depend on the processing

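The number of members fell from 45 to 29 with a highest value above 5 TPM required, to 14 above 50 TPM, and to 18 with lengths of 20 to 22 nt, while a highest value above 1 TPM gave 43. Summed over near-identical sequences or over families it was 39. With near-identical sequences summed, the members listed at all 3 earlier stages went from 5 to 3, as miR9493 and miR5387b left the list. Members of 24 nt went from 25 to 13 above 5 TPM.

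For members higher in winter, lower in winter, higher at spring green-up and lower at spring green-up, the numbers of 7, 6, 10 and 8 became 14, 10, 14 and 16 with no level filter, 4, 2, 6 and 4 at a level of 50 TPM, and 0, 2, 1 and 0 with listed zeros as missing, so most of these changes rest on a listed 0. A fold of 3, pseudocounts of 1 and 0.1 and both scalings moved no number by more than 1. The factors by which the total of known miRNAs divides all values were 0.21 in winter and -0.15 at jointing on the log2 scale.

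The summed TPM of the members at the three-leaf, winter dormancy and spring green-up stages was 992.4, 678.8 and 1135.3 scaled by the total of known miRNAs, 951.9, 759.0 and 1164.6 under median-of-ratios scaling, and 948.8, 760.2 and 1104.4 over values above 5 TPM. Spring green-up remained the highest and winter the lowest under all 3. No paired analysis was possible because each stage has 1 library, and leaving out a replicate was not possible for the same reason. A value of 1 TPM rests on 18 to 22 reads.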
